A study of Macaca fascicularis with 64 samples.

Results

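The SLC25 genes encode the mitochondrial carrier family, and 47 genes whose symbol is SLC25A followed by a number were found among the 28141 genes of the deposited tables. Each SLC25 protein crosses a membrane, in most cases the inner membrane of the mitochondrion, and many of them exchange one metabolite for another. The adenine nucleotide translocators export ATP and import ADP, the phosphate carrier supplies ATP synthase, and the aspartate/glutamate, citrate, ornithine and carnitine-acylcarnitine carriers link mitochondria to NADH transfer, lipid synthesis, the urea cycle and fatty acid oxidation. Tissues differ in which carriers they use, so the family reports on the metabolic make-up of an organ.

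RNA-seq was carried out on cynomolgus monkeys (Macaca fascicularis), a macaque used as a primate model. The newborn samples came from 2 animals labelled as knockout (KO) for SIRT6, a sirtuin deacylase of chromatin, and from 2 wild-type (WT) animals. Kidney, liver, lung, heart, thymus, brain and muscle were taken from each newborn, with 2 libraries per animal and tissue, which gave 56 libraries. Another 8 libraries came from WT fetuses, with 2 libraries of brain and 2 of muscle at gestation month 2 and at month 4. Animals carry the numbers 2 and 3 in both genotypes, and values by animal are given in that order. The labels do not describe the SIRT6 edit. They also do not tie a fetal library to a fetus, so a fetal p-value covers library-to-library spread alone, possibly technical.

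Levels are FPKM (fragments mapped to a gene, scaled to its length and to the library's total), averaged over the 2 libraries of an animal. Over the 28 pairs of repeat libraries the correlation across genes was 0.9875 to 0.9938, and relative sequencing depth differed by up to 2.32-fold between newborn libraries. In KO animals 2 and 3 SIRT6 stood at 9.54 and 11.5 FPKM in brain, against 12.4 and 12.1 FPKM in the WT animals. In muscle SIRT6 was at 4.99 and 8.81 FPKM in the KO and 8.13 and 8.36 FPKM in the WT animals, and in no tissue did its level pass the test, with adjusted p from 0.54 to 0.94 by limma. A level over the whole gene does not resolve an edited site, so it does not check the genotype labels. Of 25 tissue markers examined, 24 were highest in their own tissue in all 4 animals, TF being the exception. Summed lung markers were 1884.4 and 1318.9 FPKM in KO lung against 18062.8 and 18041.9 FPKM in WT lung, with none of 3 called. Summed kidney markers were 228.2 and 485.4 FPKM in KO kidney against 3179.5 and 2943.7 FPKM in WT kidney, a sum made up mostly of UMOD.

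In WT newborns 30 of the 47 carriers reached 1 FPKM in every tissue, and 4 (SLC25A2, SLC25A31, SLC25A41 and SLC25A52) stayed under 1 FPKM in all 7. SLC25A31, the translocator known from the testis, reached at most 0.421 FPKM in a WT animal, in brain. The highest WT mean was in kidney for 15 carriers, in brain for 11, in liver for 8, in thymus for 5, in muscle and heart for 3 each and in lung for 2. For 25 carriers both WT animals lay above both values of every other tissue in that top tissue, 9 of them in kidney, 6 in brain and 5 in liver. The 25 include SLC25A41 in brain (0.416 and 0.277 FPKM) and SLC25A52 in kidney (0.0153 and 0.344 FPKM), which are near the floor. The same tissue was highest in all 4 animals for 14 carriers. The shares of all genes that meet either rule are not given, so these counts do not set the carriers apart. SLC25A3, SLC25A4, SLC25A5 and SLC25A6 together supplied 40.7% to 89.8% of the summed carrier FPKM of an animal's tissue.

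**Figure D1:**
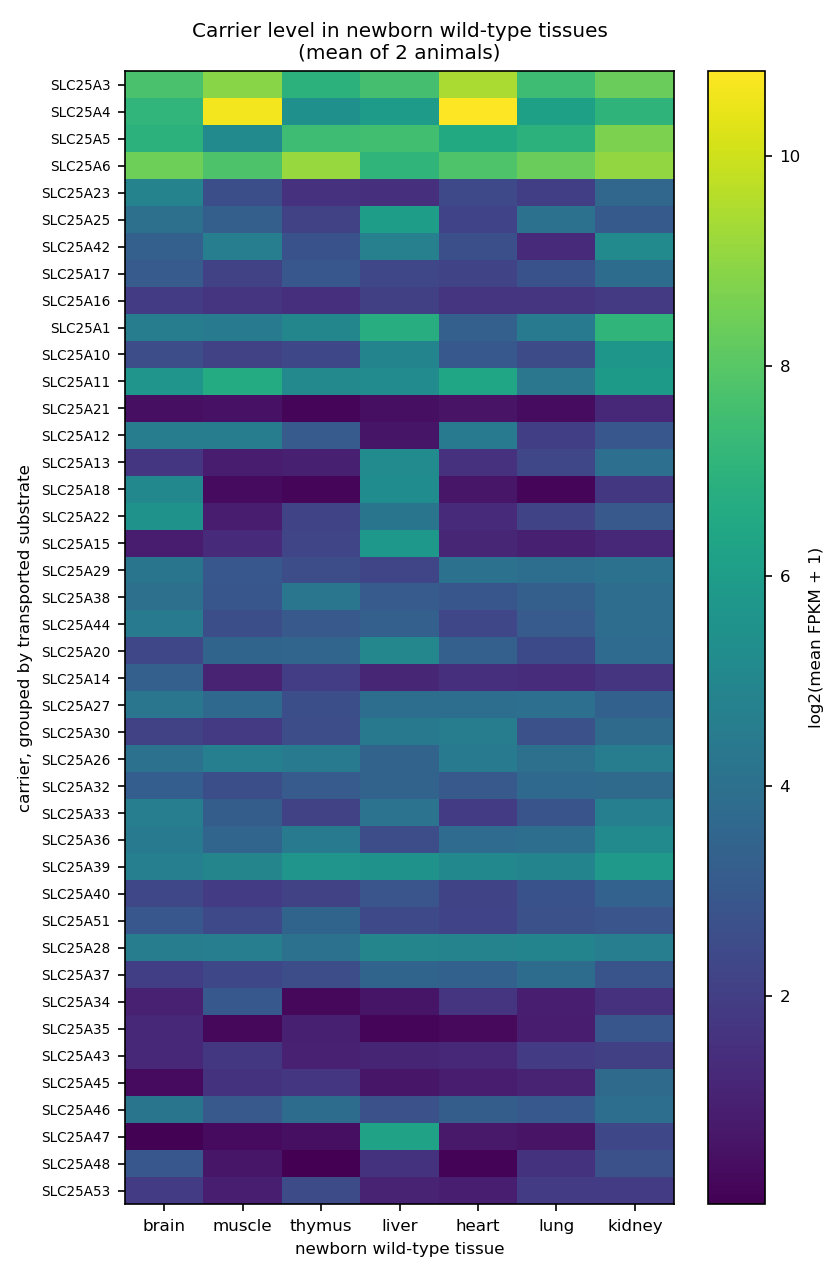
Level of the carriers that reached 1 FPKM in a WT tissue, all but 1 of them shown (rows, grouped by transported substrate), in each newborn WT tissue (columns), as log2 of the mean FPKM of 2 animals plus 1. SLC25A4 is brightest in heart and muscle, SLC25A6 is bright in every tissue, and SLC25A15 and SLC25A47 stand out in liver.

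Each WT tissue was compared with the mean of the other 6 on log2(FPKM + 1) in a limma model with the animal as a block, and a call needs a Benjamini-Hochberg adjusted p under 0.05 over all genes. The log2 differences below are given after subtraction of the median over all genes tested, and the p-value tests the difference before subtraction. That median was -0.32 in heart, 0.26 in kidney, -0.46 in liver and -0.45 in muscle. On this scale a difference understates the change of low genes.

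Among the carriers of adenine nucleotides and phosphate, SLC25A4, the translocator of striated muscle, spanned 42.2-fold between tissues. It was at 2169.1 and 1418.8 FPKM in WT heart and at 1256.5 and 1876.2 FPKM in WT muscle, against a mean of 42.5 FPKM in thymus, its lowest tissue. Heart and muscle overlapped, and both exceeded the other tissues, with log2 differences of 4.06 ± 0.21 (SE) in heart (adjusted p = 5.1e-07, limma) and 3.96 ± 0.21 in muscle (adjusted p = 4.8e-07, limma). SLC25A5, the translocator linked to proliferating cells, was instead highest in kidney, at 455.1 and 366.3 FPKM, and lowest in muscle, at 30.3 and 38.0 FPKM. Processed copies of SLC25A5 exist in primate genomes, so the authors' counting could split its reads. SLC25A6, the third translocator, varied least of the 3, from a mean of 561.7 FPKM in thymus to 135.6 FPKM in liver, and thymus (560.7 and 562.7 FPKM) overlapped kidney (583.9 and 487.1 FPKM). The phosphate carrier SLC25A3 was highest in heart, at 778.0 and 628.3 FPKM, above muscle at 423.8 and 524.1 FPKM in both animals. SLC25A23, a calcium-regulated ATP-Mg/phosphate carrier, was highest in brain, at 26.2 and 28.6 FPKM, 2.47 times the mean of kidney.

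Of the 8 amino acid carriers tested, 6 were called higher and 2 lower in brain, where 32.2% and 34.2% of all genes were called. In liver 4 were higher and 3 lower (all genes 15.2% and 48.6%), in heart 2 and 6 (14.3% and 37.2%), and in muscle 1 and 7 (14.7% and 47.1%). In kidney 4 were higher and 1 lower (33.1% and 13.3%), in thymus 1 and 4 (32.9% and 36.0%) and in lung 1 and 4 (25.4% and 20.7%). After quantile normalisation the counts were 1 higher and 3 lower in kidney, which turned the balance, and 1 and 3 in muscle. In the KO animals 7 were tested, with 4 higher and 1 lower in brain and 0 and 3 in muscle. The mitochondrial glutamate carriers SLC25A22 and SLC25A18 led in brain. SLC25A22 was at 36.4 and 56.5 FPKM there, 2.69 times liver, the next tissue (log2 difference 3.32 ± 0.19, adjusted p = 8.9e-08, limma). SLC25A18 was at 31.8 and 31.9 FPKM in brain and at 47.9 and 26.3 FPKM in liver, so these tissues overlapped, while thymus had a mean of 0.108 FPKM. Its log2 difference was 3.72 ± 0.19 in brain (adjusted p = 5.1e-08) and 4.30 ± 0.19 in liver (adjusted p = 9e-08), both by limma.

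The aspartate/glutamate carriers, which move reducing equivalents of the malate-aspartate shuttle, were split between tissues. SLC25A12 (aralar) was at 21.6 and 24.1 FPKM in brain, 24.3 and 20.7 FPKM in muscle and 22.7 and 18.7 FPKM in heart, 3 tissues that overlapped, and at 0.558 and 0.486 FPKM in liver. SLC25A13 (citrin) was at 29.8 and 41.8 FPKM in liver and at 0.899 and 0.7 FPKM in muscle. SLC25A12 thus made up 96.4% and 96.7% of the summed FPKM of the pair in WT muscle and 1.84% and 1.15% in WT liver. SLC25A15, the ornithine carrier of the urea cycle, was at 62.5 and 44.8 FPKM in liver, 13.9 times thymus, the next tissue (log2 difference 4.92 ± 0.17, adjusted p = 9.1e-09, limma).

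Liver also led for SLC25A47, a carrier known for its restriction to that organ, at 74.3 and 75.8 FPKM, 18.2 times kidney (log2 difference 5.95, adjusted p = 2e-10, limma). SLC25A20, the carnitine-acylcarnitine carrier, was at 19.1 and 42.6 FPKM in liver, above kidney at 7.43 and 18.3 FPKM. The citrate carrier SLC25A1 was shared by kidney (160.4 and 106.1 FPKM) and liver (107.5 and 104.0 FPKM), which were separated by less than the difference between the kidneys. SLC25A10, the dicarboxylate carrier, was at 61.8 and 43.0 FPKM in kidney, 1.86 times liver (log2 difference from the other tissues 2.57, adjusted p = 4.3e-06, limma). SLC25A45, whose substrate is less settled, was at 14.4 and 10.8 FPKM in kidney, 5.44 times thymus, its next tissue.

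In WT muscle the carriers with the largest difference after SLC25A4 were SLC25A34 and SLC25A12, and SLC25A34, of unsettled substrate, stood at 4.31 and 9.36 FPKM (log2 difference 2.35, adjusted p = 0.00027, limma). Thymus led with SLC25A6, SLC25A53 (4.82 and 4.34 FPKM) and the glycine carrier SLC25A38 (15.6 and 20.8 FPKM). In heart SLC25A30 was at 32.6 and 14 FPKM and overlapped liver. The 3 carriers called higher in lung differed little: mitoferrin 1 (SLC25A37), an iron importer, at 15.4 and 11.2 FPKM had the largest difference (log2 difference 1.02 ± 0.31, adjusted p = 0.013, limma), followed by SLC25A29 at 17.4 and 11.1 FPKM and SLC25A32 at 13.1 and 11.3 FPKM. Mitoferrin 2 (SLC25A28) was more even, with 1.9 times the thymus level in liver, its highest tissue.

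Of 42 carriers tested in each WT tissue, kidney had 22 called higher and 2 lower, where 33.1% and 13.3% of all genes were called. Liver had 13 higher and 16 lower (all genes 15.2% and 48.6%), and brain had 14 higher and 10 lower (32.2% and 34.2%). Muscle had 7 higher and 21 lower (14.7% and 47.1%), heart 6 and 18 (14.3% and 37.2%), thymus 6 and 18 (32.9% and 36.0%) and lung 3 and 15 (25.4% and 20.7%). These splits moved with the scaling: after quantile normalisation kidney had 16 higher and 6 lower, liver 16 and 10, muscle 9 and 10, heart 8 and 15 and lung 1 and 17. The median carrier lay 0.59 above the all-gene median in liver and 0.32 above it in kidney on the log2 scale, and 0.35 below it in lung.

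For the comparison of KO with WT, each tissue was fitted alone, 2 animals against 2, so 1 animal can decide a call. In bulk tissue, fewer cells of a type and less RNA per cell cannot be told apart. The all-gene median that was subtracted from the log2 changes was -0.20 in brain, -0.21 in thymus, -0.19 in liver and -0.17 in lung. Nothing in the labels makes the shared animal numbers a pair across genotypes.

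KO kidney had the most carriers called, 10 lower and 1 higher of 42 tested, where 4.76% and 1.02% of all genes were called. The 10 include SLC25A35, SLC25A47, SLC25A18 and SLC25A16, which entered the test through their WT values alone. The carriers that fell supply ATP exchange, phosphate, dicarboxylates, citrate, glutamate and nucleotides. The median log2 change of the tested carriers was 0.51 below that of all genes, and 34 of 42 lay below it. SLC25A5, the leading translocator next to SLC25A6 in this organ, was at 118.6 and 119.0 FPKM in the KO and at 455.1 and 366.3 FPKM in the WT animals, a 3.46-fold difference (log2 change -1.73 ± 0.29, adjusted p = 0.012, limma). SLC25A4 was at 36.3 and 47.3 FPKM against 129.2 and 128.0 FPKM (-1.57 ± 0.28, adjusted p = 0.015, limma). SLC25A6 overlapped between genotypes, at 397.2 and 491.4 FPKM in the KO and 583.9 and 487.1 FPKM in the WT animals (adjusted p = 0.68, limma). SLC25A4 and SLC25A5 thus fell, and SLC25A6 did not pass.

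The phosphate carrier SLC25A3 fell in KO kidney too, from 346.5 and 304.6 FPKM in the WT to 93.0 and 158.5 FPKM in the KO animals, with no overlap (adjusted p = 0.045, limma, and 0.091 after quantile normalisation). Of the carboxylate carriers, the dicarboxylate carrier SLC25A10, a kidney-preferring gene in the WT, was at 10.1 and 20.1 FPKM against 61.8 and 43.0 FPKM, 3.46-fold lower (-1.74 ± 0.37, adjusted p = 0.027, limma). The citrate carrier SLC25A1 was at 48.2 and 55.5 FPKM against 160.4 and 106.1 FPKM (adjusted p = 0.042, limma, and 0.11 after quantile normalisation). SLC25A33, a pyrimidine nucleotide carrier, was at 8.62 and 9.46 FPKM against 24.7 and 24.8 FPKM, and neither genotype spread by as much as the gap between them.

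The remaining carriers that fell in KO kidney were at low levels. SLC25A35 was at 0.23 and 1.15 FPKM against 5.55 and 7.46 FPKM (-2.15 ± 0.38, adjusted p = 0.015, limma). SLC25A47 was at 0.461 and 0.435 FPKM against 3.76 and 4.47 FPKM, and SLC25A18 at 0.129 and 0.15 FPKM against 2.97 and 1.78 FPKM. SLC25A16, a carrier linked to coenzyme A, was at 0.372 and 0.307 FPKM against 2.72 and 2.39 FPKM. SLC25A47, SLC25A18 and SLC25A16 were under 1 FPKM in both KO kidneys, so they entered the test through their WT values alone. So did SLC25A35, whose mean over the KO kidneys was under 1 FPKM. The SLC25A16 call (adjusted p = 0.045, limma) ended in 7 of 8 alternatives, among them a pseudocount of 0.1 (0.054). SLC25A27, an uncoupling-like carrier first described in brain, was the carrier that rose, from 8.19 and 10.4 FPKM to 22.5 and 23.6 FPKM (1.28 ± 0.28, adjusted p = 0.041, limma). SLC25A20 was at 1.51 and 3.72 FPKM against 7.43 and 18.3 FPKM and did not pass (adjusted p = 0.05, limma). No carrier call in kidney held with either WT animal left out, which leaves 1 WT animal, or when genes under 1 FPKM were also tested. In the last case 0 of 23705 genes passed, and SLC25A5 had an adjusted p of 0.11 by limma. Calls over all genes fell as well with either WT animal left out. Fewer carriers passed without KO animal 2.

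Other genes that handle the same substrates were measured beside these carriers. In KO kidney 4 of 6 genes of fatty acid entry fell, among them ACSL1, which activates fatty acids, from 112.0 and 131.2 FPKM to 7.61 and 12.3 FPKM, and 3 of 4 malate-aspartate shuttle enzymes fell (MDH1, MDH2 and GOT1). Of 8 genes that reflect mitochondrial content 3 fell (ATP5B, ATP5A1 and NDUFS1), and the coactivator PPARGC1A was at 2.9 and 5.46 FPKM against 22.6 and 15.6 FPKM. In the kidney marker list 2 of 4 fell in the same samples, UMOD of the thick ascending limb from 2721.4 and 2440.9 FPKM to 117.7 and 271.5 FPKM and SLC34A1 of the proximal tubule from 140.6 and 172.1 FPKM to 29.1 and 37.8 FPKM. SLC12A1 was at 75.9 and 170.6 FPKM in the KO and 313.8 and 329.0 FPKM in the WT animals and did not pass. The podocyte marker NPHS1 did not follow, at 5.44 and 5.42 FPKM in the KO and 3.74 and 1.69 FPKM in the WT animals. Summed fibroblast markers were 493.0 and 504.0 FPKM in the KO and 246.0 and 265.4 FPKM in the WT animals, with none of 4 called. PDGFRA of that list overlapped, at 6.23 and 21.0 FPKM in the KO and 14.7 and 9.22 FPKM in the WT animals. The part of these markers in the carrier result was not tested.

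**Figure D2:**
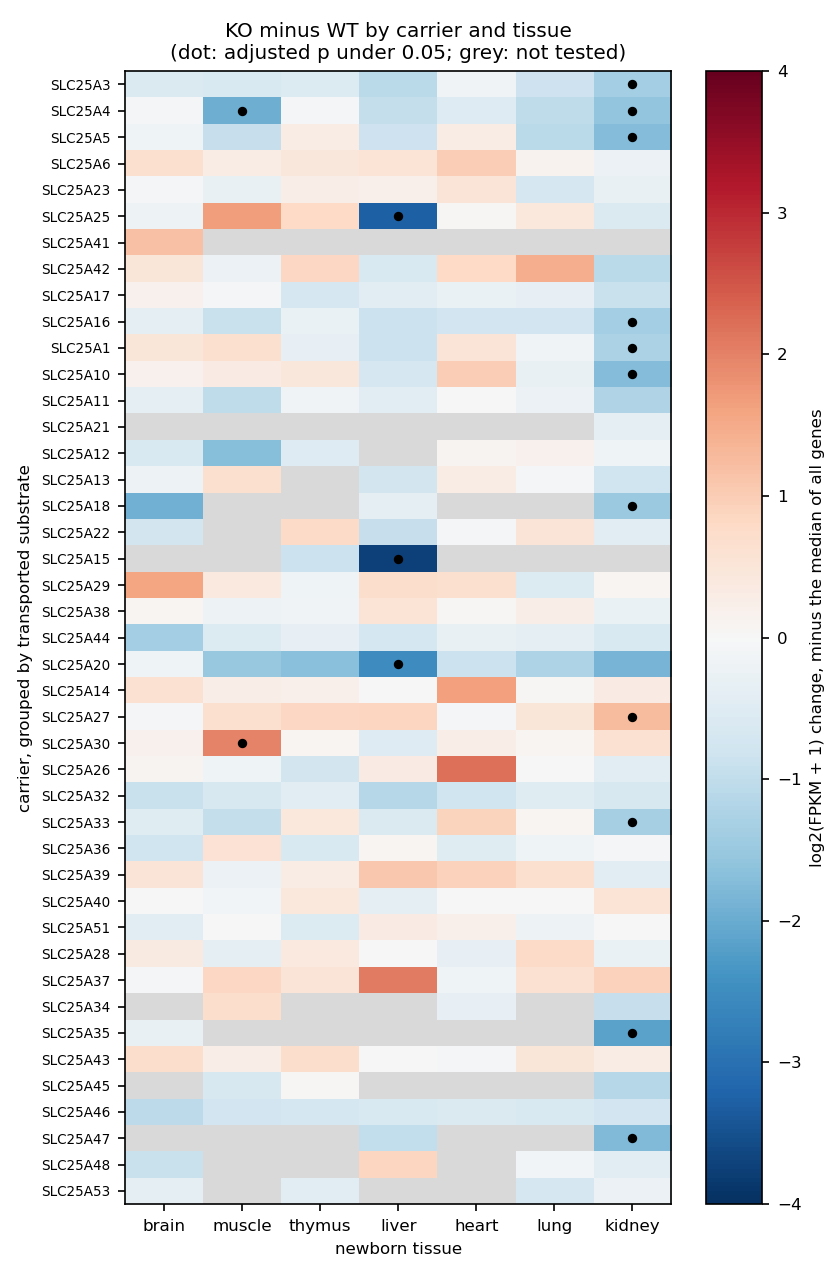
Log2 change of the tested carriers, all but 1 of them shown, between KO and WT animals in each newborn tissue, after subtraction of the all-gene median, with dots where the adjusted p was under 0.05 and grey where a carrier was not tested. The dots gather in kidney (11), with 3 in liver and 2 in muscle.

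In KO liver 3 of 37 carriers tested fell and none rose, where 0.836% and 0.262% of all genes were called lower and higher, and the median carrier change lay 0.45 below that of all genes. The ornithine carrier SLC25A15 was at 1.92 and 3.37 FPKM in the KO and at 62.5 and 44.8 FPKM in the WT animals, 20.3-fold lower (log2 change -3.73 ± 0.48, adjusted p = 0.004, limma). SLC25A25, an ATP-Mg/phosphate carrier, was at 7.16 and 3.04 FPKM against 51.9 and 75.2 FPKM, 12.5-fold lower (-3.28 ± 0.51, adjusted p = 0.010, limma). The carnitine-acylcarnitine carrier SLC25A20 was at 2.86 and 4.31 FPKM against 19.1 and 42.6 FPKM, 8.6-fold lower (-2.52 ± 0.52, adjusted p = 0.039, limma). In all 3 the genotypes were well apart. The calls ended without KO animal 2 and when genes under 1 FPKM were also tested (adjusted p 0.32 to 0.40 by limma). In that last setting 0 of 22883 genes passed. Those of SLC25A25 and SLC25A20 ended after quantile normalisation (0.093 and 0.11) and without KO animal 3 as well (0.063 and 0.09), as that of SLC25A20 did without WT animal 3 (0.31).

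The liver carriers next to them were closer together. SLC25A47, chosen for naming after its values were seen, was at 34.7 and 30.2 FPKM in KO liver against 74.3 and 75.8 FPKM (-1.0 ± 0.43, adjusted p = 0.23, limma), and citrin (SLC25A13) was at 16.9 and 19.7 FPKM against 29.8 and 41.8 FPKM. Mitoferrin 1 (SLC25A37) was at 16.7 and 61.3 FPKM in the KO and 16.5 and 3.6 FPKM in the WT livers, and KO animal 3 supplied the high value (2.08 ± 0.73, adjusted p = 0.26, limma). Erythroid genes were high in the same livers: the embryonic globin HBZ was at 300.2 and 545.7 FPKM in the KO and 7.34 and 2.51 FPKM in the WT animals, and ALAS2, the erythroid enzyme that starts heme synthesis, was at 192.5 and 516.9 FPKM against 111.3 and 38.2 FPKM. Among the erythroid markers HBZ and AHSP (283.6 and 263.1 against 41.8 and 16.8 FPKM) rose and HBB fell (870.5 and 427.7 against 4172.0 and 3185.5 FPKM). ALAS2, EPB42 and KLF1 were higher in both KO livers without passing, and SLC4A1 overlapped. The part of these cells in the SLC25A37 level was not tested.

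Beside SLC25A15, none of the 6 urea cycle enzymes tested passed in KO liver by limma (adjusted p from 0.075 for ASS1 to 0.67 for NAGS). An unadjusted p under 0.05 was found for 4 of them and for 1796 of 12207 genes in all. The median log2 change of the 6 was -1.84. CPS1, which makes the carbamoyl phosphate that ornithine accepts, was at 51.3 and 148.1 FPKM in the KO and 274.9 and 876.9 FPKM in the WT animals. Beside SLC25A20, CPT1A, the enzyme that makes long-chain acylcarnitine, fell from 128.6 and 134.2 FPKM to 4.66 and 8.09 FPKM (-4.02 ± 0.47, adjusted p = 0.0021, limma), and was the one gene of 5 tested for fatty acid entry that passed. GOT1 fell from 99.7 and 71.1 FPKM to 8.48 and 9.37 FPKM, and PPARGC1A from 21.2 and 7.56 FPKM to 0.839 and 0.276 FPKM. PPARGC1A entered the test through its WT values alone. Summed hepatocyte markers, nearly all ALB and APOA1, overlapped between genotypes, at 22651.5 and 34018.1 FPKM in the KO and 39337.3 and 30580.7 FPKM in the WT animals. APOB of the same list was at 81.1 and 359.7 FPKM against 455.2 and 476.5 FPKM and did not pass. Summed macrophage markers were 29.4 and 215.7 FPKM in KO and 869.1 and 758.2 FPKM in WT liver, with 1 of 6 called lower, and their part in the carrier changes was not tested.

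In KO muscle 1 of 35 carriers fell and 1 rose, where 1.58% and 0.745% of all genes were called lower and higher. SLC25A4, the main translocator of the tissue, was at 266.7 and 579.8 FPKM in the KO and at 1256.5 and 1876.2 FPKM in the WT animals, 3.70-fold lower (log2 change -1.96 ± 0.39, adjusted p = 0.0065, limma). SLC25A30, an uncoupling-like carrier, was at 10.4 and 17.1 FPKM in the KO and 2.48 and 2.75 FPKM in the WT animals, 5.24-fold higher (1.99 ± 0.49, adjusted p = 0.028, limma). Aralar (SLC25A12) had the next smallest p, with 4.35 and 8.9 FPKM against 24.3 and 20.7 FPKM, and did not pass (-1.69 ± 0.49, adjusted p = 0.074, limma). The SLC25A4 call ended without KO animal 2, after quantile normalisation (adjusted p = 0.16, limma) and with no level filter (0.42), where 0 of 22557 genes passed. That of SLC25A30 ended in 6 of its 8 alternatives, among them each animal left out in turn (0.055 to 0.41).

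UCP3, a family member outside the SLC25A symbols, was at 0.304 and 0.531 FPKM in KO muscle against 75 and 152.6 FPKM in WT muscle (-6.26 ± 0.50, adjusted p = 1.8e-08, limma). Being under 1 FPKM in both KO animals, UCP3 entered the test through its WT values alone. The aminotransferases that work with SLC25A12, GOT1 and GOT2, fell by 2.00 and 1.68 on the log2 scale (adjusted p = 0.021 and 0.035, limma). None of 8 genes of mitochondrial content passed by limma, 5 had an unadjusted p under 0.05, and the median change of the 8 was -1.14. Among all genes 1636 of 12087 had an unadjusted p under 0.05. The contractile gene ACTA1 fell as well (adjusted p = 0.0023, limma), from 46163.8 and 36891.4 FPKM to 19680.0 and 10313.7 FPKM, and was the one call among 4 muscle markers. CKM was at 8860.4 and 7706.6 FPKM in the KO and 12026.8 and 14878.3 FPKM in the WT animals, whereas MYLPF (12323.8 and 8189.5 against 11170.3 and 5684.6 FPKM) and TNNT3 (4113.5 and 3554.2 against 3743.5 and 3207.5 FPKM) overlapped. Macrophage markers summed to 1.53 and 23.7 FPKM in the KO and 66.7 and 35.6 FPKM in the WT animals, with 3 of 5 tested called lower. Neutrophil markers summed to 19.7 and 34.6 FPKM against 134.8 and 260.7 FPKM, with 2 of 3 tested called lower. The part of these cell types in the carrier changes was not tested.

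**Figure D3:**
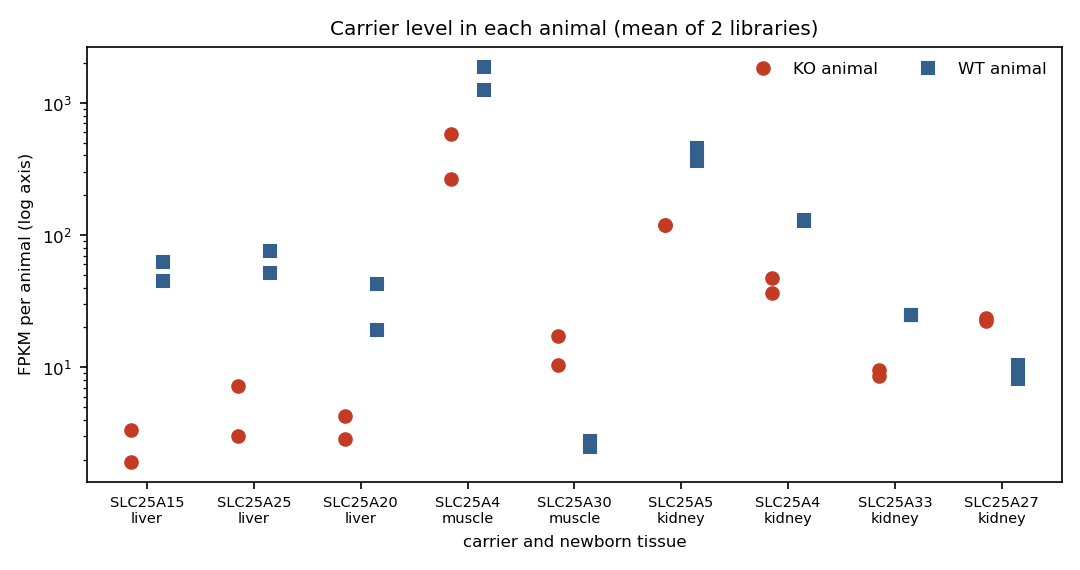
FPKM in each KO animal (circles) and WT animal (squares), on a log axis, for 9 carriers and tissues that passed the test. In each of the 9 the 2 KO animals lie on one side of the 2 WT animals, from SLC25A15 in liver (1.92 and 3.37 against 62.5 and 44.8 FPKM) to SLC25A27 in kidney (22.5 and 23.6 against 8.19 and 10.4 FPKM).

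No carrier passed in KO brain (39 tested), thymus (36), heart (35) or lung (36) by limma. Few genes passed at all: 0.0% higher and 0.0% lower in brain and in lung, 0.0% and 0.00772% in thymus, and 0.106% and 0.0734% in heart. At an unadjusted p under 0.05 there were 8 carriers in brain (1701 of all genes), 2 in thymus (767), 5 in heart (1128) and 3 in lung (963).

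In brain the glutamate carrier SLC25A18 was at 10.5 and 4.02 FPKM in the KO and 31.8 and 31.9 FPKM in the WT animals (-1.91 ± 0.46, adjusted p = 0.39, limma). SLC25A44, a branched-chain amino acid carrier, was at 4.53 and 8.8 FPKM against 19.2 and 22.7 FPKM, and SLC25A29, a carrier of basic amino acids, was at 41.4 and 53.1 FPKM against 20.2 and 14.8 FPKM, both with an adjusted p of 0.39. KO animal 2 was low for SLC25A22 (10.7 FPKM, against 48.2 FPKM in KO animal 3 and 36.4 and 56.5 FPKM in the WT animals) and for SLC25A12. The neuronal marker SNAP25 was low in the same brain, at 87.3 FPKM against 452.8, 367.9 and 410.8 FPKM. So was SYT1, at 39.6 FPKM against 149.7, 256.7 and 229.2 FPKM, while STMN2 was not (1694.5 FPKM against 1495.2, 1077.1 and 1000.4 FPKM). The part of neurons in these carrier values was not tested. GFAP of astrocytes overlapped between genotypes, at 283.5 and 111.6 against 369.1 and 276.1 FPKM. Without KO animal 3, 10 of 39 carriers passed in brain, as did 2369 of 13516 genes in all, and without KO animal 2 there was 1 of 38, with 68 of 13152 genes.

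In heart SLC25A26, the S-adenosylmethionine carrier, had the smallest p, at 154.4 and 56.3 FPKM in the KO and 25.4 and 16.2 FPKM in the WT animals (2.20 ± 0.46, adjusted p = 0.10, limma). SLC25A14, an uncoupling-like carrier, was at 8.92 and 5.72 FPKM against 1.9 and 1.65 FPKM, and SLC25A6 at 486.3 and 379.0 FPKM against 203.2 and 246.6 FPKM, both without overlap. Of 3 heart markers tested, atrial NPPA rose, from 63.1 and 102.7 FPKM to 609.5 and 1128.4 FPKM. MYL7 was at 2416.1 and 1008.4 FPKM in the KO and 742.5 and 689.0 FPKM in the WT hearts, and MYH6 at 3.09 and 33.2 against 26.8 and 415.4 FPKM, neither called. Their part in these carrier values was not tested.

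In thymus SLC25A20 had the smallest p, at 0.724 and 4.01 FPKM in the KO and 6.14 and 14.9 FPKM in the WT animals (-1.66 ± 0.61, adjusted p = 0.70, limma), and SLC25A15 and SLC25A46 followed with the same adjusted p. UCP1, the uncoupling protein of brown fat, was at 0.0645 and 0.0261 FPKM in KO thymus and 29.0 and 9.28 FPKM in WT thymus. In lung SLC25A20 was at 0.81 and 0.863 FPKM against 2.15 and 6.56 FPKM, SLC25A4 at 23.9 and 37.3 against 78.8 and 62.5 FPKM, and SLC25A5 at 66.5 and 38.2 against 105.3 and 138.2 FPKM. All 3 lung carriers had an adjusted p of 0.68 and no overlap between genotypes.

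Across tissues, both KO animals lay below both WT animals in all 7 for SLC25A15, SLC25A16 and SLC25A20, which is 3 of the 41 carriers tested in the average. Of 15038 genes 0.572% did so, and 0.446% lay above in all 7, as no carrier did. The 7 tissues share the same 4 animals and are no separate evidence. SLC25A32, SLC25A46 and SLC25A47, named after their values were seen, were lower without overlap in 6 tissues. The exceptions were lung, heart and brain in that order. So was SLC25A35, which was not tested in the average, with liver as the exception. The share of all genes lower in 6 tissues is not given, so this does not set these carriers apart.

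In the change averaged over the 7 tissues no carrier of 41 passed by limma, with 0.253% of all genes called higher and 0.239% lower and an all-gene median of -0.11. At an unadjusted p under 0.05 there were 11 carriers, against 2003 genes in all. SLC25A15 had an averaged log2 change of -0.95 ± 0.23 (adjusted p = 0.084), SLC25A20 of -1.42 ± 0.35 (adjusted p = 0.094) and SLC25A16 of -0.77 ± 0.22 (adjusted p = 0.13), by limma. Without KO animal 3, 6 of 42 carriers passed, as did 1018 of 14898 genes in all against 74 with all animals, and without WT animal 2 there was 1 carrier among 96 genes.

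The KO change differed between tissues for 5 of 41 carriers, by an F test over the 6 interaction terms, where 5.73% of all genes were called. SLC25A15 led (F = 22.3, adjusted p = 6.5e-05, limma), with a 20.3-fold lower level in KO liver and 2.10-fold in kidney. It was below the level filter in kidney, brain, muscle, heart and lung. SLC25A47 (F = 10.8), SLC25A25 (F = 10.6), SLC25A5 (F = 6.66) and SLC25A18 (F = 6.41) followed, with adjusted p from 0.0028 to 0.025 by limma. With 0.1 added in place of 1, SLC25A47 (adjusted p = 0.083, limma) and SLC25A18 (0.091) did not pass. Nor did SLC25A5 (0.052) and SLC25A18 (0.077) after quantile normalisation. A carrier that is low in a tissue can hardly fall there, as SLC25A47 in WT brain (mean 0.0554 FPKM) and SLC25A18 in WT thymus (0.108 FPKM). This holds for SLC25A15 too, whose WT mean outside liver ran from 0.833 FPKM in brain to 3.85 FPKM in thymus. SLC25A25 went both ways: it was at 20.9 and 40.5 FPKM in KO muscle against 6.16 and 11.5 FPKM in WT muscle, a difference that did not pass there (adjusted p = 0.083, limma), and fell in liver. Without WT animal 2 none of the 5 passed, and SLC25A15 then had an adjusted p of 0.066. Without WT animal 3 1 carrier passed.

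The make-up of the translocator pool was described as each gene's share of the summed FPKM of SLC25A4, SLC25A5 and SLC25A6, which does not depend on scaling between libraries. In muscle SLC25A4 held 47.5% and 67.9% of the pool in the KO and 81.4% and 89.6% in the WT animals. In heart it held 65.7% and 71.3% against 87.9% and 80.6%. The SLC25A4 share was lower in both KO animals in liver, lung and kidney too, and overlapped in brain and thymus. In these 5 tissues an exact two-sided permutation test over animals gave p = 0.33, the smallest that 2 against 2 allows. The SLC25A6 share was higher in both KO animals in 6 tissues, all but thymus, and in kidney it was 71.9% and 74.7% against 50.0% and 49.6%.

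**Figure D4:**
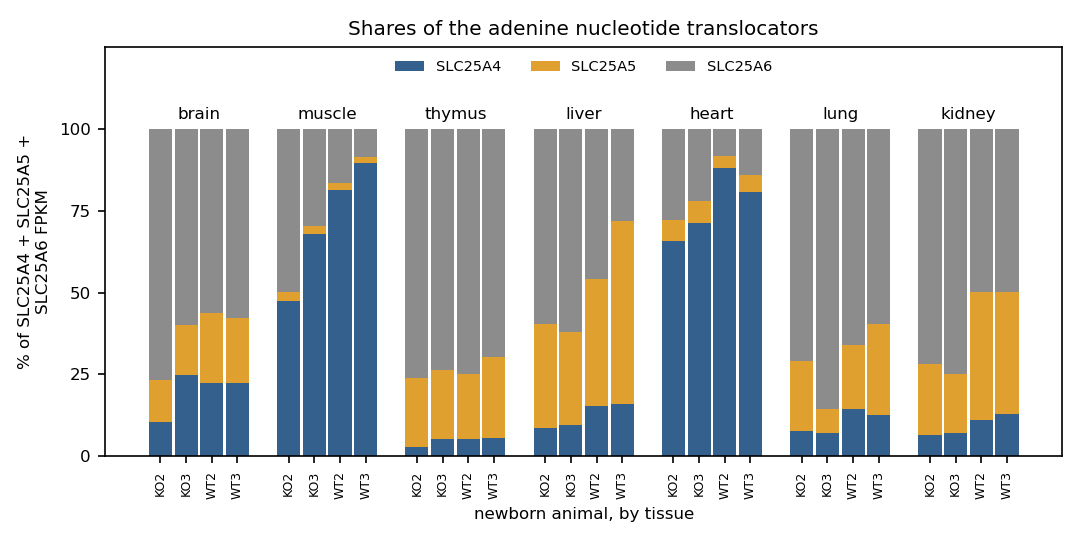
Percent of the summed SLC25A4, SLC25A5 and SLC25A6 FPKM held by each gene, with 1 stacked bar per newborn animal in each tissue. SLC25A4 fills most of the heart and muscle bars, and in KO muscle its share is 47.5% and 67.9% against 81.4% and 89.6% in WT muscle.

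The aspartate/glutamate pair and the mitoferrins were treated in the same way. In KO muscle SLC25A12 held 74.2% and 80.3% of the summed SLC25A12 and SLC25A13 level against 96.4% and 96.7% in WT muscle. In kidney its share was 35.7% and 48.0% against 27.7% and 34.8%. SLC25A37 held 40.7% and 36.3% of the 2 mitoferrins in KO kidney against 20.6% and 20.0% in WT kidney, and 28.4% and 34.5% in KO muscle against 16.3% and 13.8% in WT muscle. In brain the SLC25A37 share went the other way, at 9.39% and 7.84% in the KO against 13.7% and 10.3% in the WT animals, and in the other 4 tissues it overlapped. The SLC25A12 share was higher in KO liver (2.0% and 4.24% against 1.84% and 1.15%) and overlapped in the other 4. Each difference without overlap had p = 0.33 by the exact permutation test, again the smallest possible.

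In fetal muscle carriers changed between gestation month 2 and month 4: 10 of 35 rose and 5 fell, where 22.3% and 15.7% of all genes were called higher and lower, after an all-gene median of 0.16. After quantile normalisation the carriers split into 9 and 4. SLC25A12, the aspartate/glutamate carrier of muscle, went from 3.06 and 3.1 FPKM at month 2 to 9.65 and 9.54 FPKM at month 4, 3.11-fold (log2 change 1.21 ± 0.20, adjusted p = 0.00073, limma). SLC25A11, the oxoglutarate/malate carrier that completes the malate-aspartate shuttle with it, went from 25.8 and 27.2 FPKM to 52.5 and 77.7 FPKM (1.07 ± 0.21, adjusted p = 0.0017, limma). SLC25A4 went from 195.1 and 196.2 FPKM to 346.8 and 475.8 FPKM (0.89 ± 0.20, adjusted p = 0.0031, limma). SLC25A23 (2.07 and 1.73 to 4.98 and 5.7 FPKM) and SLC25A30 (4.16 and 3.65 to 9.09 and 9.29 FPKM) also rose, though neither passed without month 2 library 2 (adjusted p 0.063 and 0.057). SLC25A20 rose from 1.99 and 1.74 FPKM to 4.01 and 4.14 FPKM (adjusted p = 0.015, limma), though not without either month 2 library (adjusted p 0.12 and 0.19).

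A translocator and a mitoferrin were among the carriers that fell in fetal muscle. SLC25A6 went from 536.2 and 577.6 FPKM to 252.9 and 262.5 FPKM (-1.27 ± 0.18, adjusted p = 0.0013, limma), and mitoferrin 2 (SLC25A28) from 44.7 and 43.6 FPKM to 17.5 and 22.3 FPKM (-1.29 ± 0.18, adjusted p = 0.0015, limma). SLC25A14 (2.83 and 4.84 to 1.0 and 1.83 FPKM), SLC25A26 (17.2 and 15.6 to 9.9 and 9.64 FPKM) and SLC25A29 (26.5 and 27.8 to 14 and 19.7 FPKM) were lower at month 4 in both libraries, and these 3 calls ended without month 2 library 2 (adjusted p 0.12 to 0.28), the last pair also without library 1 (0.19 and 0.13). In the translocator pool the SLC25A4 share went from 25.8% and 24.7% at month 2 to 55.0% and 62.5% at month 4. The SLC25A12 share of its pair went from 66.1% and 74.5% to 83.3% and 90.4%, and the SLC25A37 share of the mitoferrins from 12.5% and 11.2% to 29.0% and 22.7%.

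The enzymes around these carriers moved in the same libraries. In fetal muscle 3 of 4 malate-aspartate shuttle enzymes rose, with GOT2 going from 21.3 and 18.2 FPKM to 60.6 and 83.9 FPKM. Of the other lists, 4 of 6 genes of fatty acid entry, 5 of 6 genes of pyruvate entry and citrate use and 4 of 8 genes of mitochondrial content rose, among them ATP5B from 59.2 and 57.2 FPKM to 226.1 and 251.4 FPKM. Of 4 muscle markers CKM rose, from 2025.4 and 2084.8 FPKM to 4479.3 and 8251.0 FPKM, as did ACTA1, while MYLPF (14662.9 and 14102.8, then 8454.7 and 13942.4 FPKM) and TNNT3 (4298.1 and 3877.3, then 2576.9 and 4862.1 FPKM) did not pass. The fat cell markers ADIPOQ (5.7 and 7.31 FPKM against 0.136 and 0.0 FPKM), PLIN1 and FABP4 were higher at month 4 as well. CIDEA, LEP and UCP1 of the same list stayed under 1 FPKM in every fetal muscle library. The part of either cell type in the carrier changes was not tested. SIRT6 itself fell in fetal muscle (-0.87 ± 0.21, adjusted p = 0.027, limma).

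In fetal brain 1 of 37 carriers rose and none fell, where 3.28% and 0.732% of all genes were called. The one was SLC25A26, at 3.44 and 3.04 FPKM at month 2 and 6.62 and 8.66 FPKM at month 4 (0.95 ± 0.23, adjusted p = 0.048, limma), and it did not pass without either month 4 library (adjusted p 0.22 and 0.34). The glutamate carrier SLC25A18, named after its values were seen, was at 2.21 and 1.8 FPKM at month 2 and 4.26 and 5.0 FPKM at month 4 (adjusted p = 0.07, limma), and in newborn WT brain it was at 31.8 and 31.9 FPKM. SLC25A22 was at 32.2 and 27.2 FPKM at month 2 and 35.4 and 42.5 FPKM at month 4. The SLC25A4 share of the translocators overlapped between months in brain.

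The change with month differed between muscle and brain for 8 of 38 carriers, 4 with a more positive log2 change in muscle than in brain and 4 with a more negative one, where 6.61% and 7.39% of all genes were called. SLC25A26 led with opposite directions, up in brain and down in muscle (muscle minus brain -1.79, adjusted p = 0.0047, limma), and it passed in all 12 alternatives. On the same side were SLC25A18 (-1.39, not tested in muscle, where every fetal library was under 1 FPKM), SLC25A6 (-1.31) and SLC25A28 (-1.19). On the other were SLC25A36 (1.18), SLC25A12 (0.97), SLC25A30 (0.87) and SLC25A20 (0.87), with adjusted p from 0.029 to 0.044 by limma for all 7. Each of these 7 missed the threshold in 6 to 10 of the 12 alternatives, most often with 1 library left out.

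**Figure D5:**
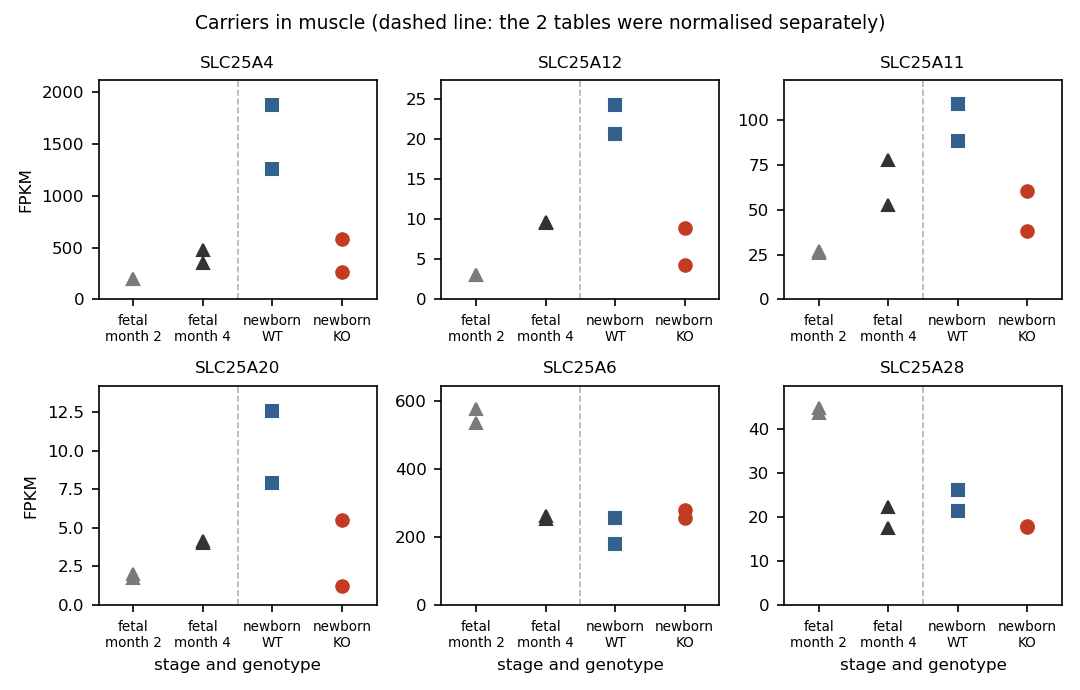
FPKM of 6 carriers in muscle, as fetal WT libraries at month 2 and month 4 (triangles) and newborn WT (squares) and KO (circles) animals, on linear axes from 0. SLC25A4 and SLC25A12 are highest in the newborn WT animals, and their newborn KO animals lie lower (266.7 and 579.8 FPKM and 4.35 and 8.9 FPKM).

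The fetal and newborn tables were normalised separately, so their levels stand side by side without a test. In muscle SLC25A4 was at 195.1 and 196.2 FPKM at month 2, 346.8 and 475.8 FPKM at month 4, 1256.5 and 1876.2 FPKM in newborn WT and 266.7 and 579.8 FPKM in newborn KO animals. SLC25A12 was at 3.06 and 3.1, then 9.65 and 9.54, then 24.3 and 20.7 FPKM in the WT, and at 4.35 and 8.9 FPKM in the newborn KO animals. The SLC25A4 share of the translocators in newborn KO muscle (47.5% and 67.9%) overlapped that at month 4 (55.0% and 62.5%). SLC25A6 did not follow this order: it was at 278.6 and 254.4 FPKM in KO and 256.3 and 180.8 FPKM in WT newborn muscle, against 252.9 and 262.5 FPKM at month 4. SLC25A30 rose before birth to 9.09 and 9.29 FPKM, and was at 2.48 and 2.75 FPKM in newborn WT and 10.4 and 17.1 FPKM in newborn KO muscle.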

How the data were processed

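Total RNA of 7 newborn tissues and of fetal brain and muscle was sequenced on the Illumina HiSeq X platform from TruSeq libraries, per the labels' protocols. The authors deposited FPKM values per gene in a newborn and a fetal table; CASAVA, HISAT 0.1.6 and Cufflinks 2.0.2 are named in the submitters' processing notes, with the genome build not given in the sources used here. Near-identical copies (SLC25A5, SLC25A51 with SLC25A52) could share reads. Depth is known only relatively, from the smallest FPKM steps (2.32-fold range in the newborn and 1.23-fold in the fetal table).

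The 2 libraries of a newborn animal and tissue were averaged, genes with a mean of at least 1 FPKM were kept, and log2(FPKM + 1) was fitted in limma 3.58.1 (R 4.3.3, lmFit and eBayes with trend) with Benjamini-Hochberg adjustment over all genes tested and a threshold of 0.05. Log2 changes are printed minus the all-gene median. WT tissues and the KO by tissue interaction had the animal as a block; KO against WT in a tissue had none. Shares were compared by exact permutation over animals. All 47 symbols are in the RefSeq gene table for the species. The values of 1 carrier, called in no KO or fetal comparison, are not reported here.

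Named were carriers called in a KO comparison, or the 3 with the smallest p where fewer passed; the 3 largest differences per WT tissue; the 5 largest rises and falls per fetal comparison; and a fixed set of main carriers. The members and gene lists were chosen with earlier results of these data known. The alternatives tried were quantile normalisation, testing without the level filter, adding 0.1 in place of 1, a replicate block, KO in place of WT animals and leaving out each replicate. On simulated data with 200 changed genes of 12087 in the muscle comparison, 9% of log2 changes of 1 and 59% of log2 changes of 2 were recovered, and 2.86% of calls were false. The simulated noise was normal and separate for each gene, and changes were placed in genes with a mean log2(FPKM + 1) above 2. These shares therefore do not cover lower carriers or shifts shared by many genes of an animal. Same-numbered KO and WT animals did not deviate together (correlations -0.097 to 0.09).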

Additional observations from a re-analysis of the deposited data

Results flagged for a closer look

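For 5 carriers the difference between KO and WT animals itself differed between the 7 newborn tissues, by limma's F test over the interaction terms with Benjamini-Hochberg adjustment over all genes. For SLC25A15 the adjusted p was 6.5e-05, with liver at 1.92 and 3.37 FPKM in the KO and 62.5 and 44.8 FPKM in the WT animals and brain at 0.629 and 0.617 against 0.703 and 0.964 FPKM. SLC25A47 had an adjusted p of 0.0028 by limma (0.083 with 0.1 added in place of 1), and its log2 change was -1.78 in kidney and -1.0 in liver. SLC25A25 had an adjusted p of 0.0029 by limma, with a lower level in KO liver and values of 20.9 and 40.5 FPKM in KO muscle against 6.16 and 11.5 FPKM in WT muscle. SLC25A5 had an adjusted p of 0.022 by limma: KO kidney was at 118.6 and 119.0 FPKM against 455.1 and 366.3 FPKM, and KO heart at 113.1 and 113.1 FPKM against 95.3 and 94.3 FPKM. SLC25A18 had an adjusted p of 0.025 by limma (0.091 with 0.1 added in place of 1). Its KO brain was at 10.5 and 4.02 FPKM against 31.8 and 31.9 FPKM, and its KO liver at 34.5 and 16.5 FPKM overlapped WT liver at 47.9 and 26.3 FPKM.

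For 8 carriers the change between month 2 and month 4 differed between fetal muscle and fetal brain by the interaction term of limma. The adjusted p was 0.0047 for SLC25A26, 0.029 for SLC25A18, 0.032 for SLC25A28, 0.034 for SLC25A12, 0.034 for SLC25A36, 0.036 for SLC25A30, 0.041 for SLC25A6 and 0.044 for SLC25A20. SLC25A36, a pyrimidine nucleotide carrier, was at 5.56 and 4.62 FPKM at month 2 and 13.3 and 8.73 FPKM at month 4 in muscle, and at 19.3 and 21.0 and then 18.9 and 13.8 FPKM in brain. SLC25A28 overlapped between months in brain (29.0 and 23 against 22.9 and 28.6 FPKM) while it fell in muscle. SLC25A18 was under 1 FPKM in every fetal muscle library, at 0.159 and 0.619 FPKM at month 2 and 0.0 and 0.0814 FPKM at month 4.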

How the results depend on the processing

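Leaving out 1 newborn animal at a time gave 0 to 10 carriers called in KO brain (0 with all animals), 0 to 3 in muscle (2), 0 to 1 in thymus (0), 0 to 4 in liver (3), 0 to 2 in heart (0), 0 to 14 in kidney (11), 0 to 6 in the average (0) and 0 to 15 in the KO by tissue interaction (5). Leaving out 1 fetal library gave 0 to 2 in fetal brain (1), 6 to 21 in fetal muscle (15) and 1 to 8 in the fetal interaction (8). Calls over all genes also rose and fell when an animal or a library was left out. These ranges therefore do not set the carriers apart. With no level filter, the counts were 0 in muscle, 0 in liver, 0 in kidney, 0 in fetal brain and 1 in the fetal interaction. No gene at all passed there in muscle, liver, kidney or fetal brain. For the fetal interaction 1070 of 23869 genes passed, against 1923 of 13742 with the filter. Quantile normalisation gave 0 in muscle, 1 in liver, 3 in the KO interaction, 0 in fetal brain and 3 in the fetal interaction. Over all genes it called 14 in muscle against 281 without it, 19 against 134 in liver and 234 against 526 in fetal brain. All-gene calls moved less in the interactions, to 832 from 861 for KO and to 1839 from 1923 for fetal month. A pseudocount of 0.1 gave 3 in the KO interaction and 0 in fetal brain, where 352 and 439 genes were called. The replicate block gave 1 in heart, 1 in the average and 0 in fetal brain, and moved no other count by over 1.5 times; the numbers name samples without pairing them. In fetal brain the same-numbered libraries correlated at -0.231, and a crossed replicate block, chosen after seeing the data, as was leaving out fetal libraries for the interaction, gave 4.

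With the KO animals in place of the WT animals the tissue comparisons called 13 carriers in brain, 12 in muscle, 13 in thymus, 18 in liver, 14 in heart and 11 in kidney. Calls over all genes fell too, from 9915 to 6280 in brain, 9219 to 3265 in muscle, 10292 to 5234 in thymus, 9525 to 6037 in liver, 7686 to 3808 in heart and 6934 to 3659 in kidney. On the log2 scale before the all-gene median is subtracted, 7 differences changed sign there: SLC25A4 (0.32) and SLC25A20 (0.14) in brain, SLC25A1 (0.14) in muscle, SLC25A22 (0.3) in thymus, SLC25A6 (0.27) in heart, and SLC25A29 (-0.56) and SLC25A22 (0.03) in lung. The SIRT6 difference between genotypes, which passed in no tissue, turned to 0.04 in brain after quantile normalisation. With 1 animal left out it ran from -0.63 to 0.09 in muscle, from -0.08 to 0.49 in lung, from -0.98 to 0.06 in kidney and from -0.55 to 0.16 in the average. The causes of these shifts were not tested. Depth limits the carriers under 1 FPKM, which were not tested.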

Other observations

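The WT animals differed from each other for SLC25A40, a carrier linked to mitochondrial glutathione. It was lower in WT animal 2 than in WT animal 3 in all 7 tissues, with 1.28 against 5.51 FPKM in thymus, 4.21 against 7.24 FPKM in lung and 5.77 against 13.3 FPKM in kidney. This carrier was chosen after its values were seen, and the difference between animals was not tested.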
